A study of Homo sapiens with 2 samples.

Results

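E-cadherin and the desmosome genes are 9 genes of cell-cell adhesion, CDH1, CTNND1, DSP, DSC2, DSG2, PKP1, PKP2, PKP3 and JUP, taken by symbol from the 46732 genes of the deposited gene table. They were measured by RNA sequencing in secondary mammospheres of T47D, a human breast cancer cell line that is luminal and carries the estrogen receptor. Mammospheres are floating clusters grown without attachment to the plate, in which the cells hold on only to each other. The study compared CIC knockdown cells with control cells, each passed once from primary to secondary mammospheres. Capicua, the product of CIC, binds DNA and holds ETV4, ETV5 and related genes down until ERK signalling inactivates it. The sources used here do not say how CIC was knocked down or what the control cells received. In the design text the study speaks of duplicates, while the labels list 1 sample per group. Each group is therefore 1 library here, with 68420805 estimated counts in the library labelled CIC knockdown and 47099221 in the control library.

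CIC mRNA showed no loss beyond counting error, with 872 counts in the library labelled CIC knockdown and 607 in control. Its ratio was 0.965 (95% counting interval 0.869 to 1.07). ETV4 and ETV5, which CIC represses, had ratios of 4.55 (3.65 to 5.91) and 4.86 (4.18 to 5.77). Every direction given here is between the 2 labels. With 1 library per group there is no test, and each interval covers counting error only, not the spread between cultures or library preparations. All 10 luminal breast markers were counted, with summed TPM (a level scaled to transcript length and to the library) of 10064 in the library labelled CIC knockdown and 10198 in control. By interval 2 of them were higher and 7 lower. Of the 8625 genes that reached 1000 counts in a library, as these 10 did, 33.9% were higher and 33.8% lower. Of the 10, 1 was past 1.5-fold, the progesterone receptor gene PGR, where 1.79% of those 8625 genes were higher by that much. PGR had 3466 counts in the library labelled CIC knockdown and 1141 in control. Of the markers of basal cells, fibroblasts, leukocytes, endothelium and squamous epithelium, KRT5, KRT14, COL1A2, PDGFRA, PTPRC, CD3E, DSG3 and KRT1 had 0 counts in both. The 6 fibroblast genes summed to 26.0 TPM in the library labelled CIC knockdown and 14.1 TPM in control. Of these, 3 had 100 or more counts, and by interval 2 were higher and 1 lower. Among the 13722 genes counted that deeply, 30.1% were higher and 30.7% lower. COL1A1, 1 of the 2 higher, had 168 counts under the knockdown label and 58 in control. It passed the count minimum only through the library where it was higher, which favoured its call. Most of the fibroblast sum was the collagen gene COL3A1, with 23.1 TPM in the library labelled CIC knockdown and 9.38 TPM in control. LUM (lumican) was lower, with 432 counts in the library labelled CIC knockdown and 550 in control. The basal list summed to 7.65 TPM in the library labelled CIC knockdown and 9.31 TPM in control. Most of it was OXTR, with 5.95 TPM under the knockdown label and 7.43 TPM in control. The squamous list summed to 5.69 TPM under the knockdown label and 5.94 TPM in control. Nearly all of it was KRT10, with 5.62 TPM under the knockdown label and 5.88 TPM in control. Leukocyte and endothelial genes summed to at most 0.207 TPM in either. The part of such cells in the results that follow was not tested.

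E-cadherin, encoded by CDH1, spans the membrane and binds E-cadherin of the neighbouring cell, while p120-catenin, encoded by CTNND1, binds its tail and keeps it at the surface. Desmosomes do the same for the keratin network. Their adhesive cadherins are desmogleins such as DSG2 and desmocollins such as DSC2, whose tails hold plakoglobin (JUP) and plakophilins (PKP1, PKP2, PKP3), and desmoplakin (DSP) links this plaque to keratin filaments. Simple epithelia such as the luminal layer of the breast mainly use DSG2, DSC2 and PKP2, whereas PKP1, DSG1 and DSG3 are known from stratified epithelium such as skin.

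All 9 genes were well counted, with at least 985 counts in each library. PKP1 was the one gene that stood clearly apart between the libraries: it was 1.62-fold lower under the knockdown label. DSP, DSC2, CTNND1 and JUP were lower by smaller amounts, and CDH1 and PKP3 were slightly higher. DSG2 and PKP2 had intervals that held a ratio of 1. By their counting intervals, 5 of 9 genes were lower and 2 higher. All 9 belong to the 8625 genes that reached 1000 counts in a library, and of those 33.8% were lower, 33.9% higher and 67.7% on either side, so a call by interval is common at this depth. The share on either side was 60.8% over all 13722 genes with at least 100 counts. Of the 9 genes, 1 was lower by at least 1.5-fold and 0 were higher, where 1.87% and 1.79% of those 8625 genes were. At 2-fold the 9 genes gave 0 higher and 0 lower, where 0.533% of the 8625 genes were higher and 0.452% lower. Over the 13722 genes those 2-fold shares were 1.14% and 1.03%, and at 1.5-fold 4% were higher and 3.65% lower. The median log2 ratio of the 9 was -0.11, with a range from -0.69 to 0.13, beside a median of 0.0014 over the 13722 genes, whose quartiles were -0.15 and 0.16. With only the transcript of each gene that had the largest count summed over both libraries, the median of the 9 was 0.031. For JUP that choice rested on the library labelled CIC knockdown. Of the 36 pairs among the 9 genes, 24 had ratio intervals that did not overlap. In bulk samples, fewer cells of a type and less RNA per cell cannot be told apart.

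**Figure D1:**
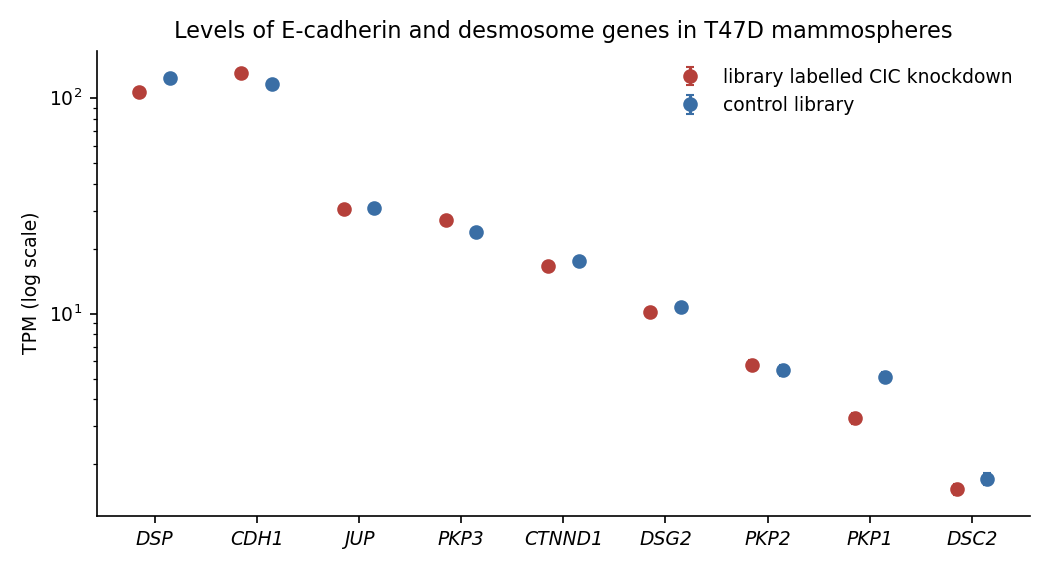
Level of each gene in TPM (y axis, log scale) in the library labelled CIC knockdown (red) and the control library (blue), 1 point per library, with 95% counting intervals that are mostly smaller than the points. DSP and CDH1 lie near 100 TPM and change places, PKP1 stands at 3.27 TPM under the knockdown label and 5.09 TPM in control, and DSC2 is the lowest in both.

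On the TPM scale the 9 genes lay between 1.54 for DSC2 and 130.4 for CDH1 under the knockdown label, and between 1.72 for DSC2 and 124 for DSP in control. In the library labelled CIC knockdown the order was CDH1, DSP, JUP, PKP3, CTNND1, DSG2, PKP2, PKP1 and DSC2, and 0 neighbours in that order had overlapping counting intervals. In control DSP came before CDH1, the other places were equal, and 1 pair of neighbours overlapped, PKP2 and PKP1. CDH1 and DSP together took 80.4% of the counts of the 9 genes in the library labelled CIC knockdown and 80.7% in control. The summed TPM of the 9 was 332 in the library labelled CIC knockdown and 335 in control, so the sum was nearly equal while single genes differed.

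CDH1 (gene 999, GRCh38 chr16:68737292-68835537, plus strand) had 41577 counts under the knockdown label and 25834 in control. Its TPM was 130.4 under the knockdown label and 116 in control, and the ratio of normalised counts was 1.08 (1.06 to 1.10). The difference was small, and 4250 of the 13722 measured genes had a log2 ratio as high or higher. Nearly all CDH1 counts lay in transcript variant 1, which encodes the full E-cadherin precursor of 882 amino acids, with 99.3% under the knockdown label and 95.9% in control. Variant 3, an alternative splice form, had 9 counts under the knockdown label and 747 in control, a share of 0.0216% and 2.89% of the gene. Variant 3 holds under 10% of the gene and was picked with its values known, as were DSP variant 3, PKP1 variant 1b and the overlapping genes with under 50 counts named here. Among the genes that overlap CDH1 in the table, the ferritin pseudogene FTLP14 inside its span had 32 counts under the knockdown label and 25 in control.

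CTNND1 (gene 1500, chr11:57761802-57819540, plus strand) had 6757 counts under the knockdown label and 5015 in control, with 16.6 TPM under the knockdown label and 17.6 TPM in control. The ratio was 0.905 (0.873 to 0.939), and the level of CDH1 was 7.87 times that of CTNND1 in TPM under the knockdown label and 6.58 times in control. The readthrough gene TMX2-CTNND1, which joins it to the gene before it, had 0 counts in both libraries. p120-catenin is made in a long form from the first of several start codons and in shorter forms from later ones, and epithelial cells are known to favour the shorter form while mesenchymal cells favour the long one. Grouped by the coding start that GENCODE gives for each of the 22 transcripts, the third start held most counts in both libraries. Its share was 82.9% (exact binomial interval 82.0 to 83.8) under the knockdown label and 88.4% (87.5 to 89.3) in control. Every interval given here for a transcript or group of transcripts leaves out the error of dividing reads among transcripts. The first start, that of the long form, held 9.01% under the knockdown label and 6.88% in control, and the second held 8.07% under the knockdown label and 4.71% in control. Most third-start counts were in variants 12, 11, 13 and 8. Variant 12 held 33.6% under the knockdown label and 36.4% in control, variant 11 held 15.1% under the knockdown label and 16.5% in control, and variant 13 held 14.9% under the knockdown label and 8.28% in control. Variant 8 had 735 counts under the knockdown label and 1140 in control, a share of 10.9% and 22.7%. The first and second starts thus had ratios of 1.19 (1.04 to 1.36) and 1.55 (1.33 to 1.82), against 0.849 (0.816 to 0.883) for the third. An 87-base exon near the 3′ end (chr11:57815915-57816001) was in transcripts holding 15.7% of the counts under the knockdown label and 28.3% in control, while the 63-base exon before it (chr11:57814311-57814373) was in transcripts holding 96.7% under the knockdown label and 96.4% in control. ESRP1 and ESRP2, splicing factors of epithelial cells that act on CTNND1, stood at log2 ratios of 0.093 (9421 counts under the knockdown label and 5934 in control) and 0.051 (4747 counts under the knockdown label and 3078 in control). Both lie outside the naming rule and were picked with their values known.

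The desmosomal cadherins were at low to moderate levels. DSG2 (gene 1829, chr18:31498177-31549008, plus strand) had 3829 counts under the knockdown label and 2686 in control, with 10.1 TPM under the knockdown label and 10.8 TPM in control. Its ratio of 0.958 (0.911 to 1.01) held 1. One predicted transcript that begins inside the gene, at 31509317, had 1 count under the knockdown label and 396 in control; the full-length transcript for the 1118-residue protein alone had a ratio of 1.12 (1.07 to 1.18), against 0.958 for the gene. The antisense gene DSG2-AS1 had 0 counts in both libraries, as had DSCAS, which overlaps DSC2.

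DSC2 (gene 1824, chr18:31058840-31102421, minus strand) had 1258 counts under the knockdown label and 985 in control. Its TPM, 1.54 under the knockdown label and 1.72 in control, was the lowest of the 9, and its ratio was 0.858 (0.789 to 0.934). DSG2 exceeded DSC2 by 6.60 times in TPM under the knockdown label and by 6.25 times in control. DSC2 makes 2 proteins from 1 splice choice near its end: Dsc2a, of 901 amino acids, has the long tail that binds plakoglobin, and Dsc2b, of 847, includes a 46-base exon that ends the reading frame after 11 codons. The spliced stretches of both forms are shown, since their shares differed between the libraries. They were read from GENCODE transcripts on GRCh38, with the last 12 bases of the shared exon in lower case and the bases that differ after it in capitals, to the stop codon in Dsc2b (exon bases chr18:31068309-31068344, minus strand) and over the same length in Dsc2a (chr18:31068177-31068212, minus strand).
Dsc2b: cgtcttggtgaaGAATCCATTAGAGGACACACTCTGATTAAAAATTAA
Dsc2a: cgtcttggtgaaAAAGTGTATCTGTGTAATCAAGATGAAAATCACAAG
Dsc2b had 428 counts under the knockdown label and 173 in control, a share of 34.0% (31.4 to 36.7) and 17.6% (15.2 to 20.1). Dsc2a had 830 counts under the knockdown label and 812 in control, and the ratios were 1.66 (1.39 to 1.99) for Dsc2b and 0.687 (0.623 to 0.757) for Dsc2a. The forms differ in 46 of 12377 bases, so the division between them rests on few reads, and the intervals leave out its error.

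Plakoglobin and desmoplakin carry the link from the cadherins to keratin, and both were lower by counts under the knockdown label. DSP (gene 1832, chr6:7541671-7586714, plus strand) had 66009 counts under the knockdown label and 53517 in control, with 106 TPM under the knockdown label and 124 TPM in control. Its ratio was 0.829 (0.819 to 0.838), and 1847 of 13722 genes had a log2 ratio as low or lower. Desmoplakin is made with a long or a shorter rod from different ends of the next-to-last exon. Variant 1 encodes 2871 amino acids, variant 2 lacks 1797 bases of that exon and encodes 2272, and variant 3 lacks 1329 bases. The junctions of variants 1 and 2 are shown, with the last 15 bases of that exon in capitals (chr6:7581555-7581569 and chr6:7579758-7579772, plus strand) and the first 15 of the last exon, which both share, in lower case.
DSP variant 1: AAGCAGGCTTTAGAGgcatctaataggatt
DSP variant 2: AATGAGCTGGCAAAGgcatctaataggatt
Variant 1 held 82.8% of DSP counts under the knockdown label and 83.1% in control, variant 2 held 13.5% under the knockdown label and 14.2% in control, and variant 3 held 3.74% under the knockdown label and 2.69% in control. The division of DSP among its transcripts thus moved by 1.05% of its counts, and the lower level was seen in variants 1 (ratio 0.826, 0.816 to 0.836) and 2 (0.784, 0.760 to 0.809), while variant 3 stood at 1.15 (1.08 to 1.23). A non-coding gene over the start of DSP, LOC101928076, had 326 counts under the knockdown label and 230 in control.

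JUP (gene 3728, chr17:41754607-41786768, minus strand) had 6610 counts under the knockdown label and 4782 in control. The ratio of counts was 0.929 (0.895 to 0.964), a log2 ratio of -0.11. With counts scaled by library totals the log2 ratio was -0.072. From TPM, 30.5 under the knockdown label and 30.7 in control, it was -0.013. The size of this small difference thus depends on the scaling and the unit. The transcript with the largest count summed over both libraries, X2, had a log2 ratio of 2.10. It led only through the library labelled CIC knockdown. In control variant 2 led with 1414 counts, against 196 under the knockdown label, a log2 ratio of -3.41. The direction of a single JUP transcript thus depends on which one is read. DSP exceeded JUP by 3.50 times in TPM under the knockdown label and by 4.02 times in control. Of the 9 genes, JUP had the most uneven transcripts: 56.1% of its counts were assigned to different transcripts in the 2 libraries. Predicted variant X2 held 48.2% of the gene under the knockdown label and 10.4% in control. Variants 1 and 2 held 7.00% and 2.97% under the knockdown label, against 27.3% and 29.6% in control. Variant 3 held 4.52% under the knockdown label and 10.9% in control. All 4 begin at the upstream starts, between 41786703 and 41786768, which together held 66.6% (65.5 to 67.8) of the counts under the knockdown label and 84.9% (83.9 to 85.9) in control. Starts between 41785919 and 41786204 held 30.5% (29.4 to 31.7) under the knockdown label and 13.5% (12.5 to 14.5) in control, mostly variant 7, with 1920 counts under the knockdown label and 598 in control. Summed over them, the downstream starts had a ratio of 2.10 (1.92 to 2.30) and the upstream starts of 0.729 (0.698 to 0.761). Both intervals leave out the error of dividing reads among transcripts, so the ratios are less certain than the intervals show.

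Because transcripts from these regions differed, the 250 bases before both RefSeq starts of JUP are shown (GRCh38.p14, minus strand, chr17:41786712-41786961 for the upper and chr17:41785977-41786226 for the lower), beside those of PKP1 (plus strand, chr1:201283256-201283505), the gene that differed most. The deposited variant 7 begins at 41786095, inside the lower window, and the deposited variants 2 and 3 begin at 41786768, inside the upper window. Capitals mark matches to 4 motifs searched on both strands: the CIC octamers TGAATGAA and TGAATGGA, the E-box CAGGTG that SNAI1 and ZEB1 can bind, and the palindrome AACCGGTT bound by grainyhead-like factors. None of them overlaps another in these windows.
JUP upper window: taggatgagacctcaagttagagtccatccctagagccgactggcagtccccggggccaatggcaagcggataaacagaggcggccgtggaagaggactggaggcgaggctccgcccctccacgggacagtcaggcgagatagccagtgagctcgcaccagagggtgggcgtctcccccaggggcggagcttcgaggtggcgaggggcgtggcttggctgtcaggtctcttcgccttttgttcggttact
JUP lower window: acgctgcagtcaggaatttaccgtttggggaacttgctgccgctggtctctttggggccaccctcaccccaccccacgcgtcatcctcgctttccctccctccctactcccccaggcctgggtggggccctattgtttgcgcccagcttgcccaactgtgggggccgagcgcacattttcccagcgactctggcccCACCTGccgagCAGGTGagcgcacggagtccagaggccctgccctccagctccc
PKP1 upstream window: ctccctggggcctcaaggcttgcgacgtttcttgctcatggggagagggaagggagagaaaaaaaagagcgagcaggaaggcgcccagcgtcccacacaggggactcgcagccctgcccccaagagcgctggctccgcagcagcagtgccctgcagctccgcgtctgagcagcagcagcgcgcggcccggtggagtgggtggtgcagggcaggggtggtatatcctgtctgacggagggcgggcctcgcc
The RefSeq table held 7 windows for 5 of the 9 genes, PKP1, DSP, JUP, DSC2 and DSG2. The E-box was in 4 of the 7, those of DSP, DSC2, DSG2 and the lower JUP window, where it stands on both strands, 54 and 43 bases before the RefSeq start. Both JUP matches lie downstream of 41786095, where the deposited variant 7 begins, so they are not upstream of that transcript. Among all 35116 windows 17.5% hold the E-box. The octamers TGAATGAA and TGAATGGA were in 0 of the 7, as against 1.4% and 0.832% of all windows, and AACCGGTT was in 0 of the 7 and 0.117% of all. A match is no evidence of binding, and the absence of these letters from 250 bases says nothing about sites elsewhere.

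**Figure D2:**
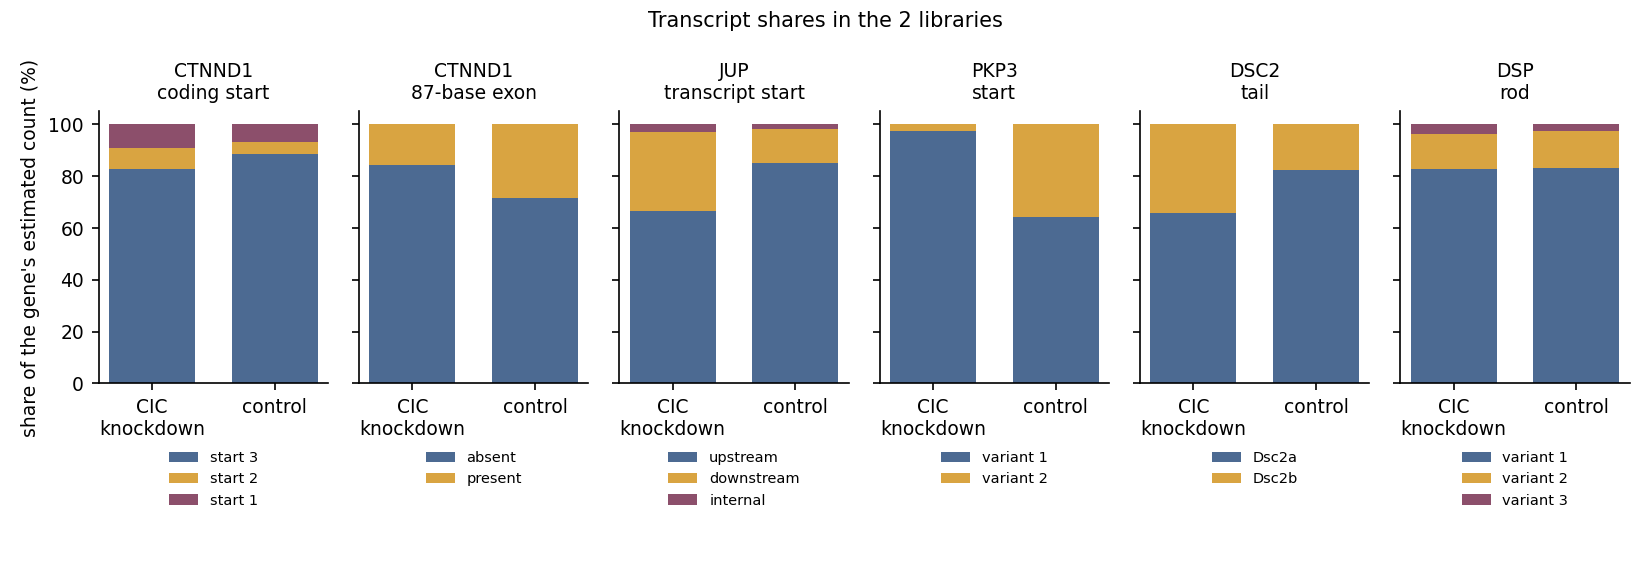
Share of each gene's estimated count (y axis, %) in groups of its transcripts, with the library labelled CIC knockdown on the left and the control library on the right of each panel. The shares of JUP starts, of PKP3 starts and of the DSC2 tails differ between the libraries (PKP3 variant 2 at 2.54% under the knockdown label and 35.7% in control), whereas the DSP variants have nearly equal shares.

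The 3 plakophilins bind desmoplakin and the desmosomal cadherins in the plaque, and their ratios differed. PKP1 (gene 5317, chr1:201283452-201332993, plus strand) had 1155 counts under the knockdown label and 1256 in control, although the first library is the deeper one. Its normalised count was 16.7 CPM (counts scaled to library size) under the knockdown label and 27.0 in control, a ratio of 0.618 (0.570 to 0.670). If both mates of each read pair were counted, the interval is 0.550 to 0.692. Of the 13722 measured genes, 356 had a log2 ratio as low or lower. PKP1 comes without (1a) or with (1b) a 63-base exon for 21 amino acids (chr1:201319816-201319878), printed in capitals between 12 bases of each neighbouring exon, because the ratio refers to almost only the form that lacks it.
PKP1 1b: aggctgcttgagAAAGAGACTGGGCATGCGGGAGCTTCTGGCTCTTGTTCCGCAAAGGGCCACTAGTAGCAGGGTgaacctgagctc
Variant 1a had 1126 counts under the knockdown label and 1255 in control, or 97.5% and 99.9% of the gene, and variant 1b had 29 under the knockdown label and 1 in control. For PKP1, no gene that overlaps it is listed in the table.

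PKP2 (gene 5318, chr12:32790746-32896846, minus strand) had 1659 counts under the knockdown label and 1090 in control, with 5.81 TPM under the knockdown label and 5.46 TPM in control. Its ratio of 1.02 (0.947 to 1.10) held 1, and variant 2a took 99.8% of its counts under the knockdown label and 99.9% in control. PKP3 (gene 11187, chr11:392596-404908, plus strand) had 5041 counts under the knockdown label and 3103 in control, with 27.0 TPM under the knockdown label and 23.8 TPM in control and a ratio of 1.09 (1.04 to 1.14). It was the most abundant plakophilin: of the summed TPM of the 3, PKP3 took 74.8% under the knockdown label and 69.3% in control. PKP2 took 16.1% under the knockdown label and 15.9% in control, and PKP1 took 9.06% under the knockdown label and 14.8% in control. Their sum was 36.1 TPM under the knockdown label and 34.4 TPM in control. Within PKP3, variant 2, which begins at 392596, had 128 counts under the knockdown label and 1107 in control, whereas variant 1, which begins at 394209, had 4913 under the knockdown label and 1996 in control, a ratio of 1.65 (1.57 to 1.74). The total of the gene therefore differed far less than its starts, by the deposited division of counts, whose error the interval leaves out.

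**Figure D3:**
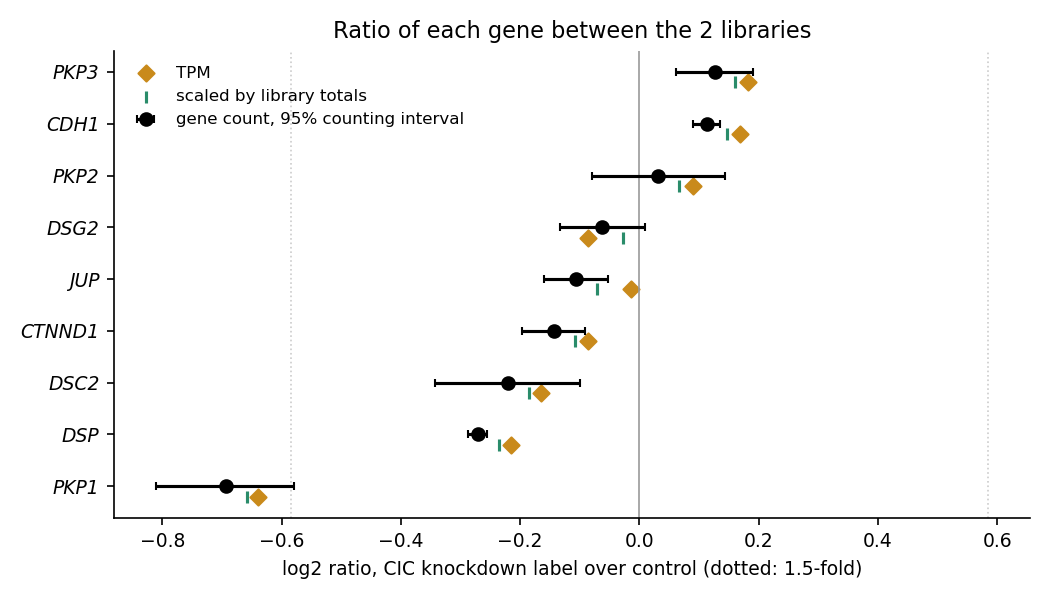
Log2 ratio of the library labelled CIC knockdown over control (x axis) for each gene, with the 95% counting interval (black), the ratio of TPM values (diamonds) and the ratio after scaling by library totals (ticks). PKP1 at -0.69 lies beyond the dotted 1.5-fold line, and the other 8 lie between -0.27 and 0.13.

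Such shifts between transcripts were frequent in these tables. Among 5953 genes with at least 1000 counts in both libraries and 2 or more transcripts with counts, the median gene had 11.97% of its counts assigned to different transcripts in the 2 libraries, and 28.6% of the genes had at least 25%. JUP with 56.1% exceeded 91.3% of them and PKP3 with 33.1% exceeded 78.7%. CTNND1 with 16.8% and DSG2 with 14.7% lay nearer the middle, and CDH1 with 3.42%, PKP1 with 2.43%, DSP with 1.05% and PKP2 with 0.0891% were below it. DSC2, with 985 counts in control, is not among those genes, and its share was 16.5%. The ratios of PKP1 and DSP were therefore little touched by the division among transcripts.

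**Figure D4:**
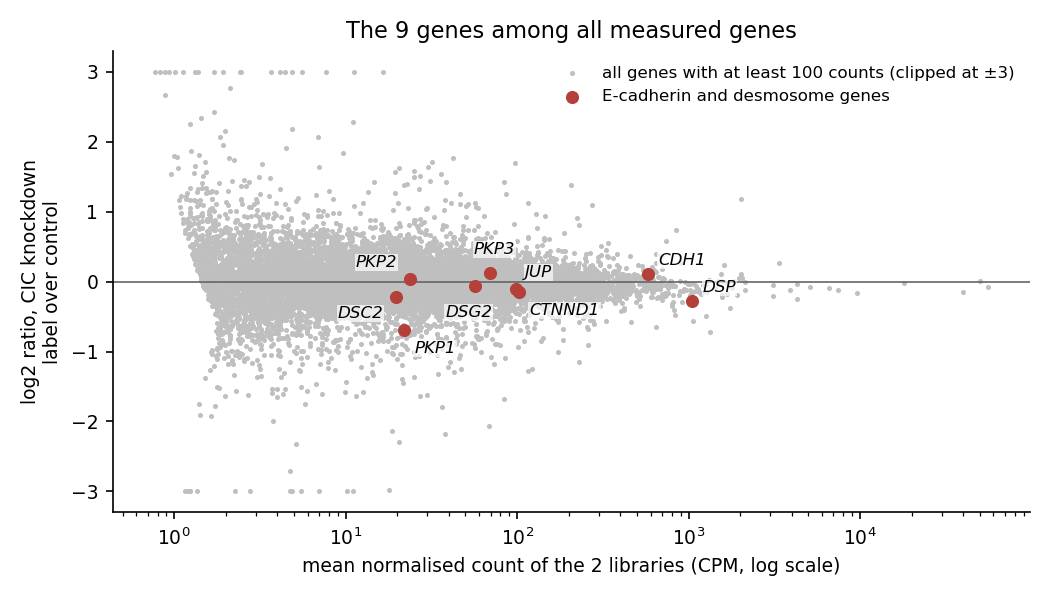
Log2 ratio of the library labelled CIC knockdown over control (y axis) against the mean normalised count of both libraries (x axis, CPM, log scale), clipped at log2 ratios of -3 and 3, for 13722 genes (grey) and the 9 genes (red). PKP1 lies at the lower side of the cloud. DSP at -0.27 and DSC2 at -0.22 lie below the lower quartile of the 13722 genes, -0.15, and the rest between the quartiles.

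The remaining components of both junctions were taken from lists. Over the 13722 genes with at least 100 counts, 30.1% were higher and 30.7% lower by interval. Of 9 other desmosome and plakin genes, 3 had at least 100 counts, 1 higher and 1 lower, with a median log2 ratio of 0.022. PERP, a membrane protein of desmosomes, stood at -0.11 (27117 counts under the knockdown label and 19704 in control), and the plakins PPL and EVPL at 0.022 and 0.12. The cadherins of stratified epithelium were at or near 0, with DSG3 and DSC3 at 0 counts in both libraries, DSG1 at 3 in each and DSC1 at 7 under the knockdown label and 10 in control. These 4 lie outside the naming rule.

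Of 13 measured catenins and actin linkers, 7 were higher and 4 lower by interval under the knockdown label, with a median of 0.098, where 30.1% and 30.7% of all 13722 genes were. CTNNAL1, which resembles alpha-catenin, had 4468 counts under the knockdown label and 1808 in control, a ratio of 1.66 (1.57 to 1.75), and was the only one past 1.5-fold. AFDN (afadin), which ties nectins to actin, stood at 0.23, LIMA1, an actin-binding protein, at -0.21 and the alpha-catenin gene CTNNA3 at -0.49 (418 counts under the knockdown label and 395 in control). The catenins that join E-cadherin to actin, also outside the rule, differed little. CTNNB1 (beta-catenin), which binds the E-cadherin tail, stood at 0.084 (33210 counts under the knockdown label and 21053 in control) and CTNNA1 (alpha-catenin), which binds beta-catenin and actin, at 0.13 (24286 counts under the knockdown label and 14953 in control).

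Of 14 other cadherins, 4 had at least 100 counts. CDH3 (P-cadherin) had 6620 counts under the knockdown label and 4334 in control and a log2 ratio of 0.037, with an interval of the ratio that held 1. CDH18 stood at -0.90 (590 counts under the knockdown label and 740 in control), CDH26 at 0.66 (594 counts under the knockdown label and 252 in control) and CDH24 at 0.37 (1239 counts under the knockdown label and 642 in control). The N-cadherin gene CDH2, a marker of mesenchymal cells outside the rule as well, had 0 counts under the knockdown label and 13 in control, a ratio whose counting interval ends at 0.220.

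Among 20 regulators of the epithelial state, 13 were measured, 3 of them higher and 5 lower, with a median of 0.024. Of the 13722 genes with at least 100 counts, 30.1% were higher and 30.7% lower. TCF3, which encodes the E-box binding E2A proteins, had 2923 counts under the knockdown label and 1369 in control, a log2 ratio of 0.52. SNAI1, a repressor of CDH1, stood at 0.48 (115 counts under the knockdown label and 55 in control, ratio interval 1.01 to 1.97). SNAI1 reached 100 counts only in the library where it was higher, so the count minimum favoured its call. EHF and GRHL1, factors of epithelial genes, stood at -0.39 and -0.19. Other repressors of CDH1 were below 100 counts and outside the rule. ZEB1 had 69 counts under the knockdown label and 31 in control, SNAI2 had 15 under the knockdown label and 24 in control, and ZEB2 had 0 in both. TWIST1 had 17 under the knockdown label and 0 in control, a ratio whose counting interval starts at 2.77. Keratins, the filaments that desmosomes hold, differed little: of 6 measured genes in the list with vimentin, the intervals of 4 lay below 1 and of 0 above it, and the median was -0.022. Over the 13722 genes 30.7% lay below 1 and 30.1% above it. At high counts even a very small difference is called, as for KRT19. With 147487 counts under the knockdown label and 99967 in control, its ratio was 0.991 (0.983 to 0.999). KRT8 and KRT18, the pair of simple epithelium, stood at -0.077 (345255 counts under the knockdown label and 244736 in control) and -0.031 (294406 counts under the knockdown label and 202050 in control). KRT80 stood at -0.31, and VIM (vimentin) at 0.032 (516 counts under the knockdown label and 339 in control).

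**Figure D5:**
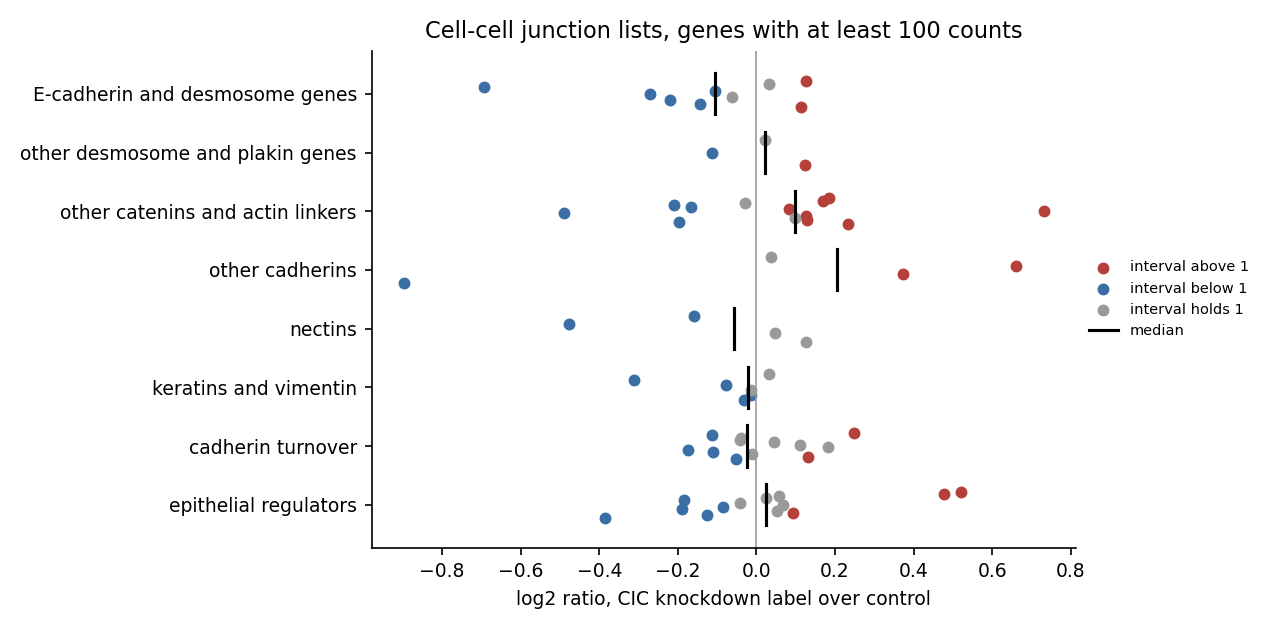
Log2 ratio of the library labelled CIC knockdown over control (x axis) for each gene with at least 100 counts in 8 lists of junction genes, coloured by the side of 1 on which its counting interval lies, with the median of each list as a black line. The medians lie between -0.11 for E-cadherin and the desmosome genes and 0.21 for the other cadherins, and single genes of each list stand on both sides of 0.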

How the data were processed

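RNA was extracted with TRIzol and sequenced on a NovaSeq from strand-specific total RNA libraries, per the labels' protocols. Tools in the submitters' processing notes are HISAT2, StringTie and Trimmomatic, without versions, and the build is GRCh38. The deposited tables give each gene and transcript an estimated count, an FPKM and a TPM, per the file headers; 0 columns of per-sample values had no sample. The authors' counts behave as coverage times length rounded up (99.9988% and 99.9987% of transcripts within a tolerance of 0.01), and whether they are of reads or fragments, and by strand, is not stated. Scaling used edgeR 4.0.16 and its TMM factors over genes with at least 100 counts (1.012 for the knockdown label, 0.988 for control), and log2 ratios used a prior count of 2. Intervals are exact Clopper-Pearson 95% intervals given the summed count. They were tried on simulated Poisson counts, for which they hold by construction. That checks the formula, not whether it holds for these estimated counts. Transcript structures came from GENCODE release 29. Genes and lists were chosen with earlier results of these data known. Named were the 9 genes, CIC, ETV4 and ETV5, overlapping genes with at least 50 counts, transcripts with at least 10% of a gene, and per list up to 4 measured genes of largest absolute log2 ratio, with all past 1.5-fold; any other was picked with its values known. 2 libraries give each gene 1 ratio, so no gene was named for likeness. Alternatives changed the scaling (DESeq2 1.42.0 size factors or library totals), prior count, unit, gene table, count minimum and gene definition. The transcript table with assembled models and the list of assembled transcripts outside genes were not used here.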

Additional observations from a re-analysis of the deposited data

How the results depend on the processing

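Across 109 recomputed ratios of single genes, 91 stayed inside the gene's counting interval, 17 moved outside it, and 1 of a called gene changed sign. Some of these alternatives could hardly move a ratio at such counts, namely another prior count and halved counts. The sum of annotated transcripts equalled the gene value, and TMX2-CTNND1, added to CTNND1, had 0 counts. The 91 therefore include ratios that were not put to a real test. Of those 17, DSG2, whose interval holds a ratio of 1, went to 0.17 with its most counted transcript. PKP1 ranged from -0.73 to -0.64 over 12 alternatives and DSP from -0.28 to -0.21. Taking the transcript with the largest count summed over both libraries in place of the gene turned JUP to 2.10 and the median of the 9 genes to 0.031. For JUP this was X2, which leads the sum only through the library labelled CIC knockdown. In control variant 2 had the most counts, with a log2 ratio of -3.41, so both signs depend on the choice. The summed choice gave 4 genes higher, 4 lower and 3 past 1.5-fold, since it reads 1 transcript of a divided gene. Otherwise the counts of genes higher, lower and past 1.5-fold remained 2, 5 and 1 under each scaling, prior count, count minimum and gene table tried, and with halved counts all 9 calls were the same. For ratios of TPM or FPKM no interval was computed, and so no such counts. With a minimum of 10 counts, 1 other desmosome gene was higher and 2 lower, and 2 other cadherins were higher and 3 lower. Of the epithelial regulators 4 were higher and 6 lower, and the remaining lists kept their counts. The share over all genes was not computed at that minimum, so these counts stand without a background. The list of assembled splice variants holds 0 models for any of the 9 genes. No paired analysis was possible because each group has 1 library, and no library could be left out for the same reason.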

Other observations

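Nectins, adhesion molecules that act beside E-cadherin, were all measured, with 0 of 4 higher and 2 lower by interval in the library labelled CIC knockdown and a median log2 ratio of -0.057. Beside this list and the next, the shares over the 13722 genes with at least 100 counts were 30.1% higher and 30.7% lower. NECTIN3 had 2540 counts in the library labelled CIC knockdown and 2377 in control, a ratio of 0.718 (0.679 to 0.760), and NECTIN4 stood at a log2 ratio of -0.16. NECTIN2 stood at 0.046 (6497 counts under the knockdown label and 4227 in control) and NECTIN1 at 0.13, both with intervals that held a ratio of 1. Among 12 measured genes that act on cadherins at the membrane, by cleavage, phosphorylation, ubiquitination or recycling, the intervals put 2 above and 4 below a ratio of 1, and the median was -0.025. SRC, a kinase that phosphorylates junction proteins, stood at 0.25 (926 counts under the knockdown label and 524 in control) and the related FYN at 0.18, with an interval that held 1. ADAM15, a membrane protease, stood at 0.13, and EZR (ezrin), which links membrane and actin, at -0.17 (14948 counts under the knockdown label and 11329 in control).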
